A study of Mus musculus with 8 samples.

Results

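The iBmp2ko/ko cells, an immortalized mouse dental papilla line that carries the Bmp2 deletion (genotype label Bmp2 KO), were followed over culture time in 3 libraries of total RNA, 1 each at 6, 48 and 72 h. These are 3 of the 8 libraries of the series. The other libraries are the Bmp2 KO library of 24 h and 4 libraries of the iBmp2fx/fx cells (Bmp2 floxed/floxed), the line with intact floxed alleles, of 6, 24, 48 and 72 h. Each genotype is represented by a single cell line, so genotype and line cannot be told apart, and no other allele or agent is named for any library. The question addressed was how the mRNA profile of the KO cells moved from 6 through 48 to 72 h. With 1 library per time, the changes inside the KO line are given as descriptions with counting error, and the floxed libraries of 6, 48 and 72 h were used where a test needed more than 1 library per time.

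Dental papilla cells are the mesenchymal cells of the tooth germ that give rise to odontoblasts, the cells that secrete dentin, and to the pulp. Bmp2 is a secreted growth factor of the TGF-β superfamily. It binds type I and type II serine/threonine kinase receptors, which phosphorylate Smad proteins that enter the nucleus and switch on targets such as the Id genes and the inhibitory Smads. Cells in culture also adjust growth, sterol supply, adhesion and innate immune programs as a dish fills and medium ages.

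Between 25890110 and 30586641 reads were counted on genes in the 3 KO libraries. Levels are given as CPM, read counts relative to the TMM-scaled library size. The detection floor of 3 counts was 0.0967 to 0.12 CPM and covers counting error only. In total, 12340 of the 22609 genes of the table reached 1 CPM in at least 1 of the 3 KO libraries and were compared. A gene is said here to have risen or fallen when its change reached 2-fold on the scale log2(CPM + 0.5). Bmp2 itself (chromosome 2, 133377895 to 133388621, plus strand of mm9) had 0 reads in all 3 KO libraries and also in the floxed libraries of the same times, so its transcript gave no check of the genotype labels.

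The KO library of 24 h was left out, because it stood apart from its label. Over the 12340 genes its root mean square log2 distance to the floxed library of 6 h was 0.142, and only 14 genes differed 2-fold between these 2 libraries. It lay much farther from the KO libraries, with distances of 0.649 (6 h), 0.623 (48 h) and 0.827 (72 h). The next closest pair of libraries in the series, floxed 24 h and floxed 48 h, lay 0.31 apart. The 24 h KO and 6 h floxed libraries were not the same counts: over 11936 genes with at least 50 reads in the pair, the mean chi-square per gene was 5.41, where counting error alone gives about 1, and the same measure was 43.1 for floxed 24 h against floxed 48 h.

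The labelled tissue was checked against marker genes. All 8 mesenchyme markers were measured in the KO libraries and none changed 2-fold from 6 to 72 h. Col1a1 was at 4755, 3265 and 3727 CPM at 6, 48 and 72 h, and the homeobox gene Prrx1 at 268, 392 and 318 CPM. Of 9 dental mesenchyme markers, 6 were measured, among them Lhx6 at 16.6, 15.9 and 18.3 CPM and Msx1 at 4.48, 3.45 and 4.19 CPM. The set was not level throughout: 1 of the 6, Dlx2, rose 2-fold from 6 to 72 h (8.9% of all genes). From 48 to 72 h 2 of the 6 rose 2-fold (5.23%). Barx1 had 0 reads in every KO library, and Lhx8 had 0 reads at 6 and 48 h and was under the floor at 72 h. The summed level of 7 epithelial markers was 0.319 to 0.89 CPM and that of 6 leukocyte markers 0.495 to 0.773 CPM, with no member at 1 CPM. Of the endothelial markers only Tek passed 1 CPM, at 1.12, 2.48 and 0.719 CPM, and the sums over that list were 1.56 to 3.61 CPM. Of the 4 adipocyte markers only Fabp4 was measured, at 4.68, 19 and 11.2 CPM, while Cfd had 0 reads at every time. Among the neural markers Tubb3, a tubulin that cultured fibroblasts also express, was at 55.2, 41.4 and 58.1 CPM, and Sox10 was under the floor at every time. Of the 4 skeletal muscle markers only Acta1 was measured. In bulk RNA, fewer cells of a type and less RNA per cell cannot be told apart. Markers of mature odontoblasts were nearly absent. Ibsp and Mepe had 0 reads in all 3 KO libraries, and Dspp and Dmp1 had 0 reads at 6 and 48 h and were under the floor at 72 h.

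The KO cells changed little from 6 to 48 h and much more from 48 to 72 h, and most early changes were rises. From 6 to 48 h, 686 genes rose (5.56% of 12340) and 84 fell (0.681%), and the falls numbered 28 with an offset of 2 CPM, 167 with one of 0.1 CPM and 33 among genes of at least 10 CPM. From 48 to 72 h, 645 rose (5.23%) and 1238 fell (10%), with 816 falls among the 9983 genes of at least 10 CPM. Over the whole course 1098 genes rose (8.9%) and 1438 fell (11.7%). Most genes, 9873, stayed within 2-fold in both steps. The largest changing class, 1076 genes, was level to 48 h and then fell, 621 genes were level to 48 h and then rose, and 520 rose to 48 h and then stayed within 2-fold of the 48 h level. A further 148 genes rose and then fell. Only 18 genes rose 2-fold in both steps and 14 fell in both.

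**Figure D1:**
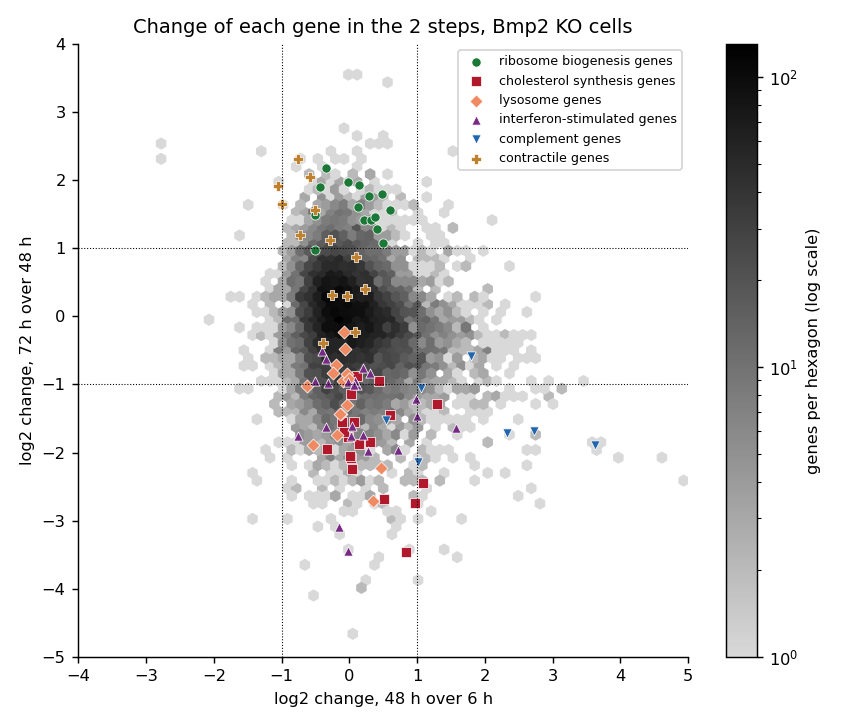
Each hexagon counts genes of the KO libraries by log2 change from 6 to 48 h (horizontal axis) and from 48 to 72 h (vertical axis), dotted lines mark 2-fold, and coloured symbols are members of 6 gene lists. Ribosome biogenesis genes lie above the upper line (14 of 15), cholesterol synthesis genes below the lower one (17 of 19), and complement genes to the lower right (6 of 7 rose by 48 h and 6 of 7 fell afterwards).

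The same genes moved mostly the same way in the floxed cells. Of the 1098 genes that rose from 6 to 72 h in the KO cells, 1073 (97.7%) were also higher at 72 h in the floxed cells, 490 of them by 2-fold, and 1 was 2-fold lower. The median log2 change of these genes was 1.32 in the KO and 0.94 in the floxed libraries. Of the 1438 that fell, 1391 (96.7%) were lower in the floxed cells, 721 by 2-fold, and 5 were 2-fold higher, with medians of -1.39 and -1.003. The genes were picked on the KO values, which by itself tends to make the KO medians the larger. Counted over all 12340 genes, 611 rose (4.95%) and 895 fell (7.25%) in the floxed cells, against 1098 and 1438 in the KO cells. The reason for this difference in number was not tested. Across the 12340 genes, which are not independent replicates, the 6 to 72 h changes of the 2 lines had a Pearson correlation of 0.856. The lines were less alike in the step to 48 h, where the correlation was 0.524, and of the 686 genes that rose there in the KO cells 142 rose 2-fold in the floxed cells.

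**Figure D2:**
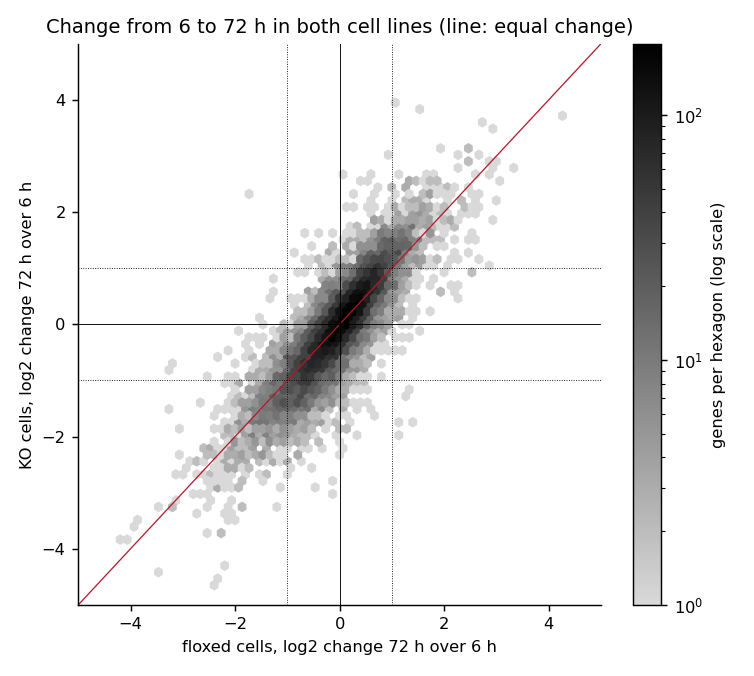
Each hexagon counts genes by log2 change from 6 to 72 h in the floxed libraries (horizontal axis) and the KO libraries (vertical axis), with dotted lines at 2-fold and a red line for equal change. The cloud runs along the equal-change line, with a Pearson correlation of 0.856 across 12340 genes.

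Because both lines were harvested at the same times, a change common to them could be tested with 2 libraries per time, 1 from each line, and a handling step shared by the libraries of a time cannot be told apart from culture time. This edgeR quasi-likelihood fit, with terms for line and time and 2 residual degrees of freedom, was chosen after seeing the data. With p-values adjusted by Benjamini-Hochberg and a limit of 0.05, it called 2568 of 13121 genes higher (19.6%) and 2932 lower (22.3%) at 72 than at 6 h. From 6 to 48 h it called 225 genes higher (1.71%) and 18 lower (0.137%), where DESeq2 called 817 and 240, and from 48 to 72 h 1801 higher (13.7%) and 2144 lower (16.3%). The 5500 calls of 72 against 6 h became 1548 without the KO library of 72 h and 3306 without that of 6 h. The 243 calls of 48 against 6 h became 69 without the KO library of 48 h, 114 without KO 6 h, 162 without KO 72 h, and 661, 644 and 823 without the floxed library of 6, 48 and 72 h. The 3945 calls of 72 against 48 h became 452 without KO 72 h and 1079 without KO 48 h. A test of a steady trend with the log2 of culture time in the KO line, fitted over the same 6 libraries, gave 0 genes at the adjusted limit with edgeR, 1103 at an unadjusted p under 0.05 and 148 with DESeq2. The difference in trend between the lines gave 0 genes with edgeR at the adjusted limit, 63 at an unadjusted p under 0.05 and 0 with DESeq2.

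The largest rises from 6 to 72 h were those of Adam12, Ctgf and Nav3. Rises and falls were ranked among the 9983 genes that reached 10 CPM in a KO library, and for 4373 of these the 48 h value lay between the others. Adam12 (chromosome 7, 141074882 to 141423829, minus strand), a membrane metalloprotease, was at 3.36, 5.25 and 60.8 CPM at 6, 48 and 72 h, so nearly all of the change fell in the last 24 h. The rise was 18.1-fold (95% counting interval 14.8 to 22.3, from 102 and 1524 reads). In the floxed cells Adam12 was already at 34.5 CPM at 6 h and reached 71.4 CPM at 72 h. Ctgf (chromosome 10, 24315248 to 24318489, plus strand), a matricellular growth factor partner, was at 27.6, 80.8 and 418 CPM in the KO cells and 117, 167 and 341 CPM in the floxed cells. The KO level was below the floxed one at 6 and 48 h and above it at 72 h. Ctgf shares exon sequence with the antisense gene Gm15270, and the strand setting of the counting is not given in the sources used here, so reads of the pair cannot be told apart.

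Cyr61 (chromosome 3, 145309935 to 145312949, minus strand), related to Ctgf, was at 45.7, 127 and 395 CPM, an 8.64-fold rise (8.17 to 9.15). Vcan, which encodes the proteoglycan versican, was at 52, 137 and 404 CPM. Both rose in each step in the KO cells, and in the floxed cells Vcan went from 96.3 to 701 CPM. Genes of activin signalling were in the group: Inhba, a subunit of activin, was at 1.52, 12.7 and 16.1 CPM, and Fst, which binds activin, at 2.31, 13.7 and 23.6 CPM. Inhba and Fst had made most of their rise by 48 h. Also among the 12 largest rises were Nav3, the lncRNA Gm12603, Npr3, which clears natriuretic peptides, and Cd80, a T cell co-stimulator, with rises of 8.9-fold to 15-fold. The 12 were chosen on the KO values, and in the floxed libraries, which took no part in the choice, all 12 were also higher at 72 than at 6 h, 11 of them by 2-fold.

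The largest falls over the course included Dpt (chromosome 1, 166726863 to 166754397, plus strand), the matrix protein dermatopontin, which was at 53.5, 34.3 and 2.28 CPM, a 23.5-fold fall (18.1 to 31.2). The floxed cells held only 2.95 CPM of Dpt at 6 h and 0.268 CPM at 72 h. Ces1a, a carboxylesterase, was at 23, 16.1 and 0.439 CPM, and its counts are uncertain because near-identical carboxylesterase genes lie beside it. Klhl30 fell from 12.7 to 4.29 and 0.12 CPM, and the last value is 3 reads, so its ratio of 106 has a counting interval from 36 to 516. Slc40a1, the cellular iron exporter, was at 20.3, 7.28 and 0.998 CPM, and Bmf, a pro-apoptotic member of the Bcl-2 family, at 23.5, 12.2 and 1.12 CPM. Bmf stood at a like level in the floxed cells, 31.2, 11.3 and 1.37 CPM. Rsad2 (chromosome 12, 27127618 to 27141317, minus strand), an antiviral enzyme induced by interferon, was level at 97.8 and 96.7 CPM and then dropped to 8.42 CPM. Also among the 12 largest falls were Prph, Mx1, which has a close copy in Mx2, Fam180a, P2rx5 and Atp8b3, with 15.3-fold to 24.8-fold falls. These 12 were likewise chosen on the KO values, and in the floxed libraries all 12 were lower by 2-fold at 72 than at 6 h.

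**Figure D3:**
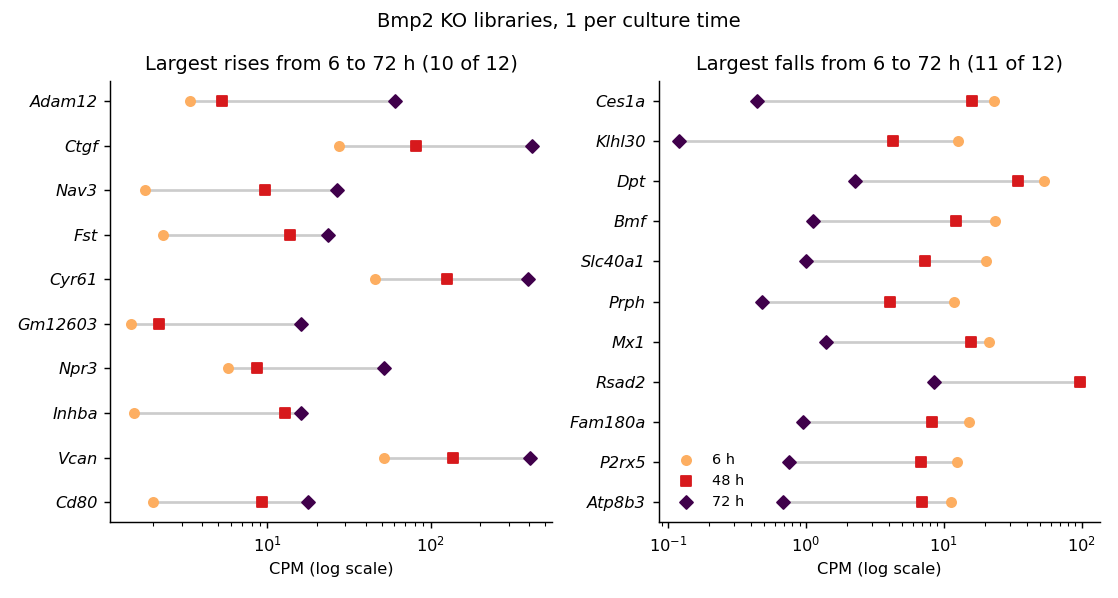
Points give CPM on a log axis in the KO libraries of 6 h (circles), 48 h (squares) and 72 h (diamonds) for 10 of the 12 largest rises (left) and 11 of the 12 largest falls (right) among genes with the 48 h value between the others. The 48 h squares of Adam12 and Rsad2 lie close to the 6 h circles, and those of Inhba and Fst closer to the 72 h diamonds.

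Of the 9983 genes at 10 CPM or more, 88 were at least 2-fold higher at 48 h than at both other times and 4 at least 2-fold lower. The 6 highest peaks included Saa3, Hp and Lcn2, genes of the acute phase. Saa3 (chromosome 7, 53967368 to 53971046, minus strand), a serum amyloid A that belongs to a family of similar genes, was at 2.34, 86.8 and 16.4 CPM. Its level at 48 h was 37.1 times that at 6 h (29.3 to 47.6). Hp, the haemoglobin-binding haptoglobin, was at 0.627, 27.9 and 6.27 CPM, and Lcn2, an iron-chelator-binding lipocalin, at 1.09, 24.1 and 5.39 CPM. Hp was close to 1 CPM in the floxed cells at all 3 times (0.621, 1.36 and 1.01 CPM), while floxed Lcn2 went from 5.84 to 22 CPM and stayed at 20.5 CPM. Steap4, a metalloreductase, was at 21.1, 143 and 36.2 CPM, and Kng2, a kininogen, at 1.78, 28.1 and 6.71 CPM. Malat1, an abundant nuclear lncRNA that overlaps Gm20417 on the other strand, was at 644, 4087 and 898 CPM. The share of uniquely aligned reads outside annotated genes was also highest at 48 h, at 21.9% against 15.9% at 6 h and 17.7% at 72 h, and its part in the peak was not tested.

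The 4 genes of at least 10 CPM with a 2-fold low at 48 h were Acta1, Cnn1, Rpph1 and Rmrp. Acta1, skeletal alpha actin, was at 10.2, 3.42 and 11.3 CPM, and Cnn1, calponin, at 105, 50.5 and 192 CPM. In the floxed cells of the same times Acta1 was at 13.5, 6.05 and 12 CPM, and Cnn1 at 113, 107 and 253 CPM. Rpph1 and Rmrp are RNA components of RNase P and RNase MRP and are not mRNAs. Rpph1 was at 12.6, 1.48 and 11.2 CPM and Rmrp at 17.6, 2.16 and 12.8 CPM, against 0.737 to 2.14 CPM for both in the floxed cells of 6, 48 and 72 h.

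The 23 gene lists described from here on were chosen with earlier results of these data known. Their shares set beside those of all genes are therefore not independent of these data. Ribosome biogenesis genes, which build rRNA and assemble ribosomal subunits, rose late and together. Of 15 members, 13 rose from 6 to 72 h (8.9% of all genes), none fell, and 14 rose between 48 and 72 h (5.23%). The median log2 change was 0.22 to 48 h and 1.57 from 48 to 72 h, against medians of -0.03 and -0.04 over all genes compared. Nop58, a core protein of box C/D snoRNPs, was at 111, 155 and 541 CPM, 4.89-fold higher at 72 than at 6 h (4.71 to 5.08). Rrs1 was at 29.9, 45.5 and 136 CPM. Mybbp1a and Dkc1, the pseudouridine synthase dyskerin, rose 2.07 and 2.05 on the log2 scale, and each overlaps a gene on the other strand. Ncl, the nucleolar protein nucleolin, was at 788, 775 and 3045 CPM. None of these 5 moved 2-fold before 48 h. All 15 were higher at 72 than at 6 h (19.6% of all genes) and than at 48 h (13.7%) in the test common to both lines.

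Of 20 mitosis genes, 7 rose from 6 to 72 h (8.9% of all genes), none fell (11.7%), and the median log2 change was 0.83. Cenpe, a kinetochore motor, was at 72.6, 126 and 202 CPM, Cenpf at 91.6, 174 and 243 CPM, and the kinase Aurka at 51.1, 55.5 and 129 CPM. Plk1, the polo kinase of mitotic entry, was at 59.1, 64.5 and 157 CPM, a 2.66-fold rise (2.51 to 2.81). None of the 20 members rose 2-fold from 6 to 48 h. In the common test 17 of 20 were higher at 72 than at 6 h (19.6% of all genes) and 14 higher than at 48 h (13.7%). Of 22 DNA replication genes, 3 rose from 6 to 72 h (Ccne2, Rrm2 and Ccne1), near the share over all genes, none fell, and the median was -0.12. The common test found 4 higher and 5 lower, near the shares over all genes. Ccne2, a G1/S cyclin, was at 13, 34.1 and 38.4 CPM, and Cdt1, which licenses replication origins, was at 313, 247 and 164 CPM.

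The list of cell cycle inhibitors and of genes linked to arrest or p53 had 16 members. From 6 to 72 h 3 rose (Ccng1, Mdm2 and Cdkn1a) and 3 fell (Cdkn1c, Ccng2 and Cdkn2a), against 8.9% and 11.7% of all genes. Cdkn1c, which encodes the CDK inhibitor p57, was at 54.9, 24.7 and 5.51 CPM, a 9.97-fold fall (8.38 to 12). Ccng1, a p53 target, was at 70.4, 174 and 377 CPM. Cdkn1c fell and Ccng1 rose in each step. Mdm2, the ubiquitin ligase of p53, was at 73.4, 138 and 212 CPM, and Ccng2 at 68.1, 78.1 and 23.6 CPM. In the common test 3 members were higher, near the 19.6% of all genes, and 6 lower, against 22.3%. Among 20 immediate early genes 7 rose and 2 fell, against 8.9% and 11.7% of all genes, with a median of 0.10. Myc was at 33.7, 75.8 and 189 CPM, a 5.6-fold rise (5.24 to 6), and Ier3 at 38.8, 49.2 and 106 CPM. Fosl1, an AP-1 subunit that overlaps Ccdc85b, was at 2.67, 8.8 and 21.8 CPM. Nr4a1, an orphan nuclear receptor, was level to 48 h and then lower, at 32.2, 27.7 and 9.66 CPM. Of this list, 8 were called higher and 2 lower in the common test, against 19.6% and 22.3% of all genes.

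Cholesterol synthesis genes, the targets of the sterol-sensing factor SREBP2, held or gained to 48 h and then fell. Of 19 measured members, 2 rose to 48 h (Idi1 and Stard4), against 5.56% of all genes. From 48 to 72 h 17 fell (10%), and 15 were lower by 2-fold at 72 than at 6 h (11.7%). The median log2 change was 0.11 in the step to 48 h and -1.84 in the step to 72 h. Hmgcs1, another gene of the pathway, was listed at 0 in all libraries. Insig1, which retains SREBP in the endoplasmic reticulum, was at 586, 831 and 129 CPM, and Lss, lanosterol synthase, which overlaps 4930483K19Rik, at 408, 799 and 119 CPM. Both were higher at 48 h than at 6 h before they fell. Mvd was at 509, 525 and 110 CPM and Fdps at 255, 203 and 52.5 CPM, both enzymes of the mevalonate route. In the floxed cells 16 of the 19 were lower by 2-fold at 72 than at 48 h, against 5.09% of all genes there. The common test called all 19 lower at 72 than at 48 h (16.3% of all genes). It called 18 lower at 72 than at 6 h (22.3%), with Stard4 the exception.

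Lysosome genes fell in the same late step. Of 15 members, 10 fell from 6 to 72 h (11.7% of all genes) and 8 from 48 to 72 h (10%), none rose, and the median was -1.34 over the course. Gpnmb, a lysosomal membrane glycoprotein, was at 590, 752 and 114 CPM, and Neu1, a sialidase, at 138, 94.6 and 25.2 CPM. Grn, the precursor of granulins, was at 1037, 915 and 272 CPM, a 3.81-fold fall (3.71 to 3.91), and Ctsk, a collagen-degrading cathepsin, at 11.7, 16.4 and 3.11 CPM. Neu1 was lower at each later time, while Gpnmb and Ctsk were highest at 48 h. Ctsb, at 1056, 1002 and 857 CPM, was the member with the smallest change. In the common test 14 of 15 were lower at 72 than at 6 h (22.3% of all genes), and Ctsb (edgeR adjusted p = 0.0539) was not called.

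**Figure D4:**
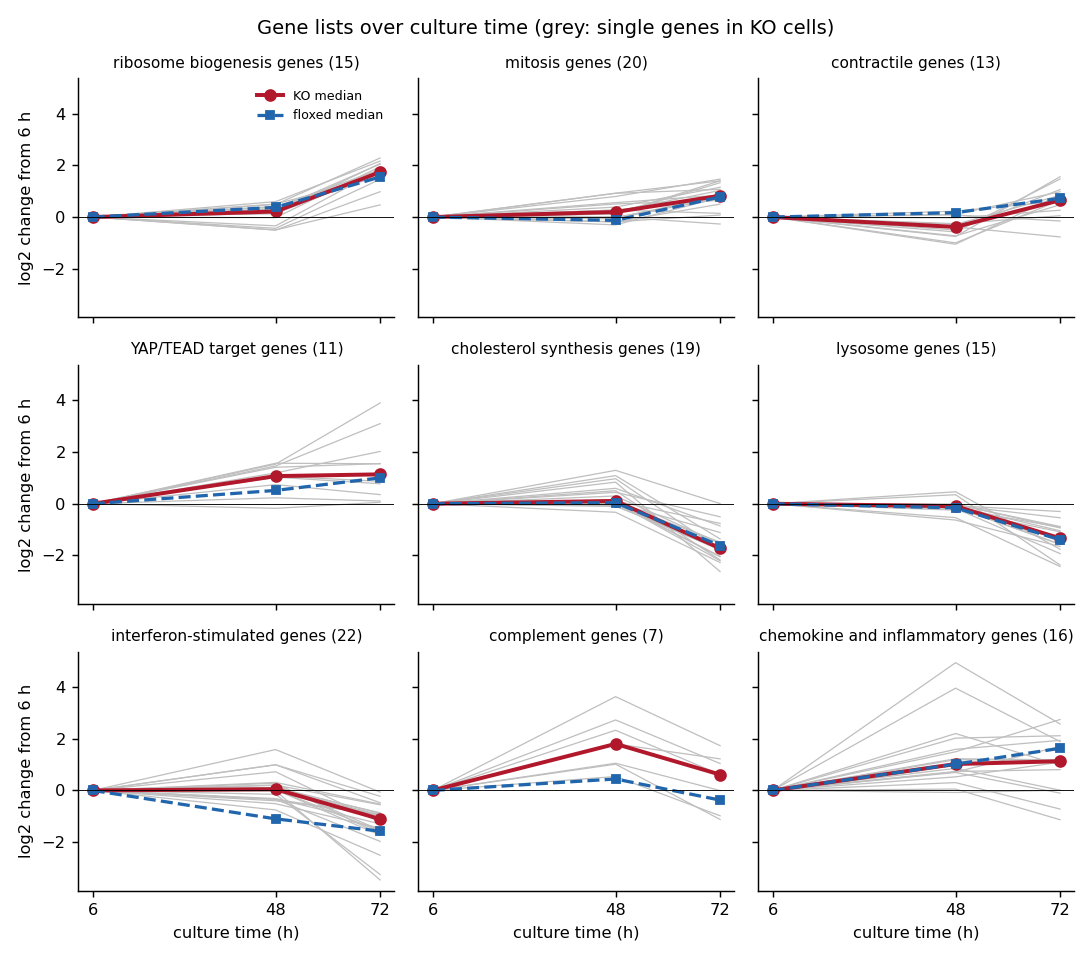
Each panel plots log2 change from 6 h (vertical axis) against culture time in hours (horizontal axis) for the measured members of 1 gene list, with grey lines for single genes in KO cells, red circles for the KO median and blue squares for the floxed median. KO medians reach 1.74 for ribosome biogenesis and -1.72 for cholesterol synthesis at 72 h, and the interferon-stimulated median at 48 h is 0.05 in KO and -1.10 in floxed cells.

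Interferon-stimulated genes encode antiviral effectors, sensors and the STAT and IRF factors that induce them. Their promoters commonly hold an interferon response element, for which GAAA, any 2 bases and GAAA again was searched on both strands from 250 bases before to 50 bases after the start sites of RefSeq on GRCm38.p6. It was in 10 of 17 windows of the list (58.8%) and in 3.44% of 32851 windows of all genes. Patterns searched for 4 of the other lists described here were TTTGAA, in 12 of 17 mitosis windows (70.6%, against 17.9% of all), CACGTG, in 2 of 11 ribosome biogenesis windows (18.2%, against 7.15%), TCACGTGA, in 1 of 13 lysosome windows (7.69%, against 0.974%), and the sterol response element, in 0 of 13 cholesterol synthesis windows (against 0.234%). The windows of Ifit3 and Rsad2, which fell, and of Isg15, whose change stayed under 2-fold, are printed as examples that hold the pattern, with the matches in capitals in the orientation of the gene, so that a match on the other strand begins and ends with TTTC. They are from chr19:34583279-34583578, plus strand, chr12:26456403-26456702, minus strand, and chr4:156200769-156201068, minus strand.
Ifit3: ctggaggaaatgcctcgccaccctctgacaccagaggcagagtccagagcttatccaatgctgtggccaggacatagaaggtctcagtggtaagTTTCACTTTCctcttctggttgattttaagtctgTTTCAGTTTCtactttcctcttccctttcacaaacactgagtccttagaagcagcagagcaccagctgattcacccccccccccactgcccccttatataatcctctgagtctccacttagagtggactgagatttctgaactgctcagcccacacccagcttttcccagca
Rsad2: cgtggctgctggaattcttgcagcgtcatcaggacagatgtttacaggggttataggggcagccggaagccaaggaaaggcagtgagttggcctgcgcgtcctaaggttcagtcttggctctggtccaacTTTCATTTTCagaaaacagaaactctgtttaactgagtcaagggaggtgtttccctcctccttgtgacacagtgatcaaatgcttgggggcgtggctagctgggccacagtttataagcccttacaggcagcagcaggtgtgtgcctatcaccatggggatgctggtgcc
Isg15: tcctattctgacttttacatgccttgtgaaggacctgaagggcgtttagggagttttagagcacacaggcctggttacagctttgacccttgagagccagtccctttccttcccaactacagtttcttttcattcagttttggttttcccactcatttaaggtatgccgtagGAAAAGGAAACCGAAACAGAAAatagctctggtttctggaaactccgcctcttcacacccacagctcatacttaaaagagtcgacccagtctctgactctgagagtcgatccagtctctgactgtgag

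In the KO cells most interferon-stimulated genes were level to 48 h, and all 22 were lower at 72 than at 48 h. Of 22 members, 1 rose to 48 h (Zbp1), near the 5.56% of all genes. From 48 to 72 h 14 fell (10%), and 11 were lower by 2-fold at 72 than at 6 h (11.7%), none higher. Ifit3 was at 349, 314 and 36.2 CPM in the KO cells, a 9.63-fold fall over the course (9 to 10.3), and at 47, 15.1 and 4.79 CPM in the floxed cells. The KO level was above the floxed one at all 3 times. Ifit1 was at 424, 335 and 108 CPM, and Isg15, a ubiquitin-like modifier, at 349, 346 and 177 CPM. Ifit1 and Ifit3 have close paralogs, so their counts are uncertain. Cxcl10, a chemokine induced by interferon, was at 244, 144 and 42.4 CPM, and overlaps Art3. Zbp1, a nucleic acid sensor, was at 42.6, 128 and 40.7 CPM, against 14.1, 9.6 and 8.25 CPM in the floxed cells. Zbp1 was thus highest at 48 h in the KO cells and at 6 h in the floxed cells. The median log2 change to 48 h was 0.05 in the KO and -1.10 in the floxed libraries. There 12 members fell in that step, against 0.851% of all genes. No member, and no other gene tested, had a difference in trend between the lines at the adjusted limit. With both lines fitted together, 19 of 22 were lower at 72 than at 6 h (22.3% of all genes) and 12 lower than at 48 h (16.3%).

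Complement genes had a peak at 48 h. Of 7 measured members, 6 rose to 48 h (5.56% of all genes) and 6 fell from 48 to 72 h (10%), with medians of 1.8 and -1.68. C3, the central component, was at 240 CPM at 6 h, 1209 CPM at 48 h and 368 CPM at 72 h, a 5.03-fold rise (4.9 to 5.16) and a 3.29-fold fall (3.21 to 3.36). In the floxed cells C3 was at 348, 463 and 342 CPM, with no 2-fold step. All 7 members were higher at 48 than at 6 h there, 2 by 2-fold (2.31% of all genes), with a median of 0.44. All 7 were then lower at 72 than at 48 h, 2 by 2-fold (5.09%), with a median of -0.80. C4b, which has a near-identical copy in mouse, was at 25.2, 316 and 84.7 CPM, and Cfb, which overlaps Gm20547, at 17.3, 118 and 36.2 CPM. C1s, which overlaps Gm16567, was at 292, 590 and 134 CPM, which left it lower by 2-fold at 72 than at 6 h. The common test called 2 members higher at 48 than at 6 h (1.71% of all genes), C4b among them (edgeR adjusted p = 0.024). It called 3 members lower at 72 than at 48 h (16.3%). For 72 against 6 h it called 1 higher and 2 lower, against 19.6% and 22.3% of all genes.

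Several chemokine and inflammatory genes rose to 48 h, and some of them fell afterwards. Of 16 measured members, 8 rose to 48 h (5.56% of all genes), 9 were higher (8.9%) and 1 lower (11.7%) by 2-fold at 72 than at 6 h, and the median was 1.02 to 48 h and 1.13 over the course. From 48 to 72 h 1 rose (Ptgs2), near the 5.23% of all genes, and 5 fell (Ccl5, Cx3cl1, Il6, Saa3 and Lcn2), against 10%. Cxcl5 was at 172, 700 and 746 CPM and Cxcl1 at 81.9, 248 and 315 CPM, both ligands that draw neutrophils. Ptgs2, the inducible cyclooxygenase, was at 13.9, 40.1 and 95.9 CPM, and rose in both steps. Ccl5, which interferon also induces, was the member that fell, at 27.5, 28.5 and 12.3 CPM. In the common test 11 members were higher (19.6% of all genes) and 1 was lower (22.3%) at 72 than at 6 h, and 7 were higher at 48 h (1.71%).

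YAP/TEAD targets respond to cell spreading and density through the transcriptional co-activator YAP. The TEAD pattern GGAATG, searched as above, was in 7 of 10 windows of the list (70%) and in 14.7% of all windows. The windows of Cyr61 (chr3:145649936-145650235, minus strand) and Ankrd1 (chr19:36119795-36120094, minus strand) are shown, as members that rose in both lines, with matches on either strand in capitals.
Cyr61: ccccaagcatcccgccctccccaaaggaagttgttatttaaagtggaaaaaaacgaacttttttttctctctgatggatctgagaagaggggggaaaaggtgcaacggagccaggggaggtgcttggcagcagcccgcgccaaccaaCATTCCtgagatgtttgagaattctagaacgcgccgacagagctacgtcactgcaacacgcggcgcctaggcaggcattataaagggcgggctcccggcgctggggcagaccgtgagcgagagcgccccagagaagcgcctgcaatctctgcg
Ankrd1: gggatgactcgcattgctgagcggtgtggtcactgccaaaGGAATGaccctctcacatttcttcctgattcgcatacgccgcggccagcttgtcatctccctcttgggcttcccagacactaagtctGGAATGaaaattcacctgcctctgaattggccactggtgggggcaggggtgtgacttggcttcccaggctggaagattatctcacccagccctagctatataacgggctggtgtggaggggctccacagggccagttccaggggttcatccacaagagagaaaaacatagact

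Of 11 measured targets, 8 rose to 48 h (5.56% of all genes) and 6 were higher by 2-fold at 72 than at 6 h (8.9%), none lower. The median was 1.07 to 48 h and 0.12 from 48 to 72 h, so most members made their change in the step to 48 h, whereas Ctgf and Cyr61 rose in both steps. Ankrd1, a nuclear repressor linked to mechanical load, was at 95.9, 220 and 391 CPM. Amotl2, which holds YAP at junctions, was at 125, 371 and 366 CPM, and Crim1, which overlaps Fez2, at 50.5, 135 and 149 CPM. In the floxed cells 1 member rose 2-fold to 48 h (2.31% of all genes there) and 6 rose over the course (4.95%). Fitted over both lines, 5 members were higher at 48 than at 6 h (1.71% of all genes) and 7 higher at 72 than at 6 h (19.6%).

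Of 13 contractile genes of smooth muscle and myofibroblasts, 7 rose from 48 to 72 h, against 5.23% of all genes. In the step to 48 h 1 fell, Cnn1 (0.681% of all genes), and 9 others were lower by less than 2-fold. Tagln, which overlaps Pcsk7, was at 216, 128 and 637 CPM, and Acta2, smooth muscle actin, at 983, 492 and 1545 CPM. Myl9, the regulatory light chain, was at 196, 138 and 409 CPM, and Actg2 at 8.74, 5.7 and 25.1 CPM. Actn1 was at 264, 284 and 522 CPM. The median log2 change to 48 h was -0.38 in the KO and 0.17 in the floxed libraries, and that from 48 to 72 h was 1.12 and 0.58. The common test called 8 members higher at 72 than at 48 h (13.7% of all genes) and none lower at 48 than at 6 h.

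Of 22 measured matrix genes, 4 rose from 6 to 72 h (Thbs1, Col12a1, Lox and Fbn1) and 3 fell (Col6a1, Col6a2 and Dcn), against 8.9% and 11.7% of all genes, and the median was 0.05. The risers had reached their level by 48 h. Thbs1, thrombospondin, was at 69.8, 401 and 333 CPM, a 5.75-fold rise to 48 h (5.49 to 6.03), and Col12a1 was at 214, 616 and 520 CPM. Col6a1 was at 1320.2, 917 and 535 CPM and Col6a2 at 551, 330 and 206 CPM in the KO cells. The floxed cells held 515, 805 and 516 CPM of Col6a1, so the KO level was above the floxed one at 6 and 48 h and close to it at 72 h. Col6a1 (edgeR adjusted p = 0.0849) and Col6a2 (0.156) were not called in the common test, which found 5 members higher, near the share of 19.6% over all genes, and 1 lower, below the 22.3%. Of 12 measured proteases and inhibitors, 4 rose, Timp1, Timp3 and Adamts1 among them, and 3 fell (Mmp2, Mmp11 and Mmp14), against 8.9% and 11.7% of all genes. Timp1, an inhibitor of metalloproteinases, was at 109, 134 and 497 CPM, while the gelatinase gene Mmp2 was at 822, 945 and 297 CPM. Mmp11, which overlaps Gm867, was at 115, 86.3 and 43.4 CPM. The common test called 5 members higher and 3 lower at 72 than at 6 h, where all genes gave 19.6% and 22.3%.

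The BMP targets Id1, Id2, Id3, Id4 and Smad7 rose in the KO cells between 48 and 72 h. Of 24 measured members of the BMP and TGF-β list, 9 rose and 2 fell from 6 to 72 h, against 8.9% and 11.7% of all genes. From 48 to 72 h there were these 5 rises and 3 falls, the latter near the 10% of all genes (5.23% for rises). In the floxed cells none of the 24 rose and 1 fell in that step, near the 1.88% and 5.09% of all genes. The common test of that step called 2 members higher and 3 lower, against 13.7% and 16.3% of all genes. Id1, a dominant negative helix-loop-helix factor and direct Smad target, was at 16, 23.3 and 78.4 CPM. From 48 to 72 h it rose 3.36-fold (3.09 to 3.67). Id2 was at 14.9, 16.3 and 67.5 CPM and Id3 at 87.5, 94 and 267 CPM. None of the 3 rose 2-fold to 48 h, and all stayed below the floxed cells at every time, where Id1 was at 144, 167 and 216 CPM, Id2 at 273, 242 and 304 CPM, and Id3 at 803, 630 and 633 CPM. Smad7, an inhibitory Smad, had the same order, with 14.8, 19.8 and 43 CPM in the KO and 95.9, 88.6 and 105 CPM in the floxed cells. Dlx2, a homeobox gene of dental mesenchyme, was at 3.63, 3.74 and 17.8 CPM, a 4.91-fold rise (3.98 to 6.1), against 48.4, 41 and 58.1 CPM. The difference in trend between the lines was not called for these 5 genes, nor for any other of the 13121 genes tested. That test fits a slope on log2 hours, so it cannot decide whether a late step differs between the lines.

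Other members of the list followed different courses. Grem1, a secreted BMP antagonist, was at 56.3, 223 and 188 CPM, a 3.97-fold rise to 48 h (3.76 to 4.19). Bmp4, a ligand, had its highest level at 48 h, at 17.3, 33 and 10.7 CPM, and Bmpr2, the type II receptor, did as well, at 8.57, 45.1 and 19.8 CPM. Bmp4 overlaps Gm15217. Tgfbi, a matrix protein induced by TGF-β, was at 198, 166 and 52 CPM, and the ligand gene Tgfb1 at 100 CPM at 6 h, 87.8 CPM at 48 h and 43.8 CPM at 72 h. Tgfbi fell in the floxed cells too, from 332 to 124 CPM. In the common test 5 members were higher at 72 than at 6 h, Id1 (edgeR adjusted p = 0.0181) and Grem1 (0.000833) among them, and 3 were lower, the 5 near and the 3 below the shares over all genes tested (19.6% and 22.3%), while Id2 (0.0611), Id3 (0.228), Smad7 (0.0648) and Dlx2 (0.0564) were not called.

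**Figure D5:**
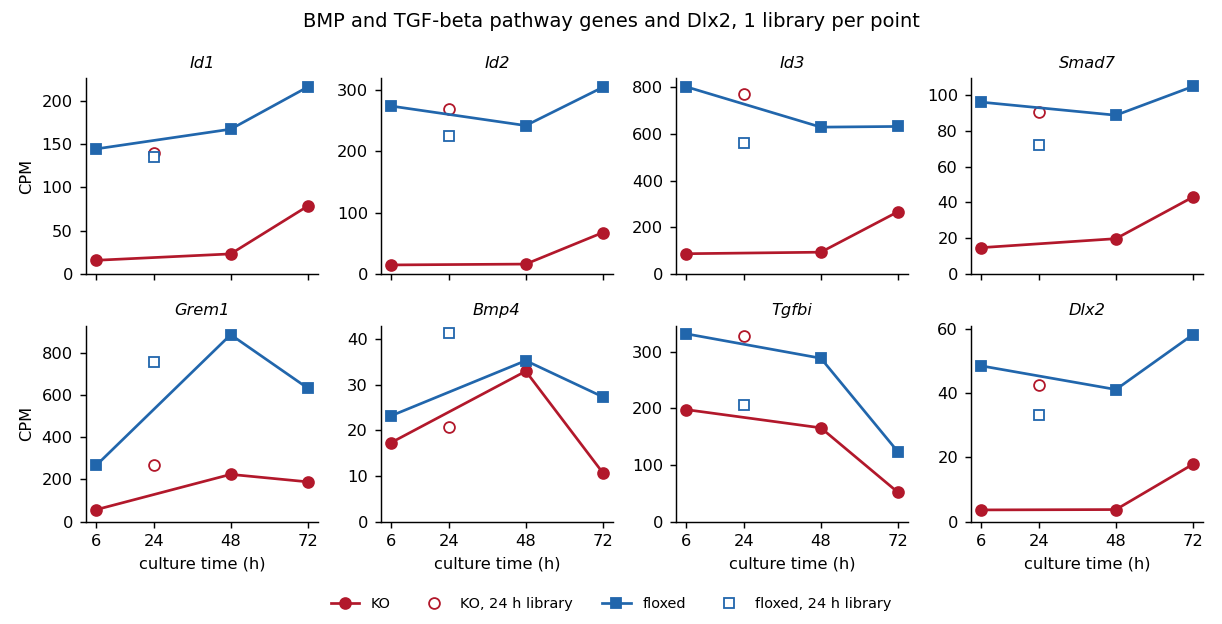
CPM on a linear axis from 0 against culture time in hours for 7 genes of the BMP and TGF-β list and Dlx2, with KO libraries as red circles, floxed libraries as blue squares, and the 24 h libraries, which entered none of the changes printed, as open symbols. The KO circles of Id1, Id2, Id3, Smad7 and Dlx2 are low at 6 and 48 h and higher at 72 h, and the open 24 h KO circles of Id2, Id3, Smad7 and Dlx2 lie near the floxed squares.

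Of 16 mineralization genes, 8 were measured. None changed 2-fold from 6 to 72 h, 7 of 8 were higher by less than that, and the median was 0.48. Runx2, the transcription factor that commits mineralizing cells, was at 42, 64.6 and 81.5 CPM, and Spp1, osteopontin, at 701, 1472 and 783 CPM. Alpl, tissue-nonspecific alkaline phosphatase, was at 0.627, 0.548 and 1.4 CPM in the KO cells and at 12.5, 50.6 and 63.3 CPM in the floxed cells. Enpp1 was at 9.69, 18 and 16.1 CPM and Phex at 0.758, 0.87 and 1.32 CPM. The common test called 4 members higher at 72 than at 6 h, against 19.6% of all genes, among them Runx2 (edgeR adjusted p = 0.0101) and Alpl (0.0072), whose KO values are near 1 CPM. Of 9 measured Wnt genes, 1 rose (Wnt5a, at 17.3, 22.2 and 37.4 CPM, which overlaps Gm2670) and 3 fell, against 8.9% and 11.7% of all genes. Wnt4 was at 9, 4.09 and 3.59 CPM and the transcription factor gene Tcf7 at 5.9, 2.38 and 2.67 CPM, both low from 48 h on. Rspo2, a Wnt potentiator, was at 6.5, 14.7 and 2.04 CPM. Of these, 1 was higher and 3 were lower at 72 than at 6 h in the common test, whose shares over all genes were 19.6% and 22.3%.

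Of 20 glycolysis and hypoxia genes, 8 rose and 1 fell from 6 to 72 h (8.9% and 11.7% of all genes), with a median of 0.93. In the KO cells 3 rose to 48 h (5.56% of all genes) and 6 from 48 to 72 h (5.23%). In the floxed cells 6 rose to 48 h (2.31% of all genes there) and none from 48 to 72 h (1.88%). Ldha, lactate dehydrogenase, was at 286, 385 and 1033 CPM, and Hk2, a hexokinase, at 26.2, 39.8 and 99.7 CPM. Pdk1, which holds pyruvate from the mitochondrion, was at 29.5, 72.1 and 108 CPM and had risen by 48 h. Ndrg1, a stress-responsive gene also listed here, went the other way, at 436, 360 and 100 CPM, and overlaps Gm17035. Reads aligned to several positions were set aside in the counting, so Gapdh and Eno1, which have many pseudogene copies, are uncertain. Across both lines 13 members were called higher and 2 lower at 72 than at 6 h, against 19.6% and 22.3% of all genes.

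Of 1092 lncRNAs that reached 1 CPM in a KO library, 131 rose (12%) and 93 fell (8.52%) from 6 to 72 h. In the step to 48 h 134 rose (12.3%) and 7 fell (0.641%), and in the step to 72 h 49 rose (4.49%) and 126 fell (11.5%). Rises outnumbered falls in the step to 48 h, as in the gene table, with which the lncRNA table shares 635 symbols. On the scale with the offset of 0.5 CPM the largest rise was that of Gm15270, at 5.84, 20.4 and 95 CPM, which overlaps Ctgf on the other strand. Gm12603 (chromosome 4, 88696212 to 88730518, plus strand), with no exon overlap on the other strand, was at 1.45, 2.16 and 16.1 CPM in the KO and at 2.36, 6.73 and 15.4 CPM in the floxed cells. Gm16796, which overlaps Pfdn4, and Gm2366, which overlaps Fat1, were the other leading risers. Among the fallers, 2900041M22Rik (chromosome 11, 117472561 to 117475171, plus strand), free of such overlap, was at 5.21, 3.87 and 0.838 CPM. Gm15135, Gm17035 and Gm15873 fell as well and overlap Trim34a, Ndrg1 and 6030429G01Rik on the other strand.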

How the data were processed

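Total RNA of the cells was sequenced in 1 library per genotype and culture time. Per the labels, the submitters' processing notes name CASAVA 1.8.2, TopHat2 2.0.8b, HTSeq and the mm9 build. The library labels describe unpaired reads, the study's methods paired reads, and the design text gives another first harvest time than the labels, whose 6 h is used here. The authors deposited raw HTSeq counts for gene and lncRNA symbols. Reads aligned to several positions, 42.7 to 49.6% of KO alignments, were set aside, and the annotation and strand setting of the counting are not given in the sources used here. The 5 HTSeq counter rows stayed out of library sizes and tests, and of the unique alignments 15.9 to 21.9% per KO library lay outside genes.

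Counts were scaled with TMM factors over the 6 libraries of 6, 48 and 72 h in edgeR 4.0.16 (R 4.3.3). Changes are log2 ratios of CPM plus 0.5, for genes of at least 1 CPM in a KO library, and were called at 2-fold. Intervals are exact conditional binomial intervals of 95% on 2 counts and cover counting error only. Tests were edgeR quasi-likelihood tests with Benjamini-Hochberg adjustment at 0.05 after its filter (at least 10 counts, 15 in total), also tried with DESeq2 1.42.0. Nothing says that libraries are separate cultures, so the spread may be technical. Named genes were, at 10 CPM or more, the 12 largest rises and falls with 48 h between, the 6 highest peaks and up to 6 dips at 48 h, up to 4 members per list with the largest change, members needed by role, Bmp2, and at 2 CPM or more 4 rising and 4 falling lncRNAs. Some genes that this rule names are not reported here. The members, the 23 gene lists and the 8 marker lists were chosen with earlier results of these data known. Symbols were matched to GENCODE M1 for positions and exon overlaps (95.7%). Promoter windows came from RefSeq on GRCm38.p6. Deviations of the 2 libraries of a time from their line's mean correlated across genes at 0.713 (6 h), 0.536 (48 h) and 0.84 (72 h), so culture time pairs the lines. Figures were drawn with matplotlib 3.10.9 in Python 3.11.15. The 24 h libraries entered the distances between libraries and the alternative over 8 libraries.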

Additional observations from a re-analysis of the deposited data

How the results depend on the processing

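Total counts of 2-fold changes in the KO cells stayed within 1.5 times under DESeq2 size factors, total reads without a factor, offsets of 0.1 and 2 CPM, and filters of 10 CPM or of 3 counts. The falls alone moved more, from 84 to 28 (offset of 2 CPM), 33 (10 CPM) and 167 (offset of 0.1 CPM) for 48 against 6 h and from 1238 to 816 (10 CPM) for 72 against 48 h. No named gene changed sign. List medians near 0 did: at 10 CPM the IGF median of 72 against 6 h went from -0.08 to 0.26 and the Wnt median of 48 against 6 h from -0.27 to 0.15, and the matrix median of 72 against 6 h went from 0.05 to -0.05 with total reads or the filter of 3 counts. Under DESeq2 factors or a filter, medians near 0 of the Wnt list (72 against 6 h) and of the immediate early, chemokine and mineralization lists (72 against 48 h) changed sign too. The offset of 2 CPM changed 24 named changes by more than their counting interval, total reads 3, and 7 list medians moved under the offset of 0.1 CPM or the filters. The trend of the KO line had 0 genes at the adjusted limit with edgeR, also with time in hours, over 8 libraries, without a filter or without a factor, but 148 with DESeq2, and 0 to 302 when each library was left out in turn, the most without KO 48 h. The difference in trend had 0 genes with edgeR and DESeq2, 0 to 1 when each library was left out, and 0 with the culture time as a replicate block (690 at an unadjusted p under 0.05, against 63 without the block). The common change of 48 against 6 h had 1057 genes with DESeq2 (817 higher, 240 lower) against 243 with edgeR (225 higher, 18 lower). Leaving out each library in turn gave 69 to 823 genes there, 1548 to 5866 for 72 against 6 h and 452 to 4505 for 72 against 48 h. These fits assume that a lone library of a time varies like the others, and the cause of the shifts was not tested. Levels under 0.12 CPM could not be separated from 0 at this depth.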

Other observations

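Of 10 genes of the NRF2 program, which guards against oxidants, 3 fell from 6 to 72 h and none rose, against 11.7% and 8.9% of all genes. Gstm1, a glutathione transferase with close copies beside it, was at 172, 132 and 23.3 CPM at 6, 48 and 72 h, a 7.38-fold fall (6.78 to 8.06), and Gsta4 at 14.8, 7.64 and 1.64 CPM. Nqo1, a quinone reductase, was at 132, 101 and 39.3 CPM. Txnrd1, thioredoxin reductase, was at 203, 295 and 404 CPM, just under 2-fold higher. The test common to both lines called 2 members higher and 5 lower at 72 than at 6 h, against 19.6% and 22.3% of all genes.

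Among lipid storage genes, 2 of 11 rose and 1 fell, against 8.9% and 11.7% of all genes, and 8 of 11 were lower at 72 than at 6 h, with a median of -0.39. Angptl4, an inhibitor of lipoprotein lipase, was at 18.6, 50.7 and 70.8 CPM, and Pnpla2, the triglyceride lipase, at 86.9, 60.2 and 21.6 CPM. Fasn, fatty acid synthase, was at 950, 1184 and 484 CPM. In the common test 2 of the list were higher, near the 19.6% of all genes, and 6 lower, against 22.3%. Of 9 IGF system genes, 1 rose (Igfbp3, at 19.8, 40.2 and 44.1 CPM) and 3 fell, all encoding IGF-binding proteins, against 8.9% and 11.7% of all genes. Igfbp6 was at 540, 308 and 164 CPM, Igfbp4 at 23.8, 30.3 and 7.94 CPM, and Igfbp5 at 4.06, 1.13 and 0.559 CPM. The common test called 2 higher and 3 lower, against 19.6% and 22.3%. Of 9 Notch genes 1 rose, Hey2, at 0.824, 0.87 and 2.24 CPM, near the 8.9% of all genes, and the common test called 3 higher and 2 lower, against 19.6% and 22.3% of all genes. Of 19 amino acid stress genes, targets of ATF4, 2 fell, Chac1 (76, 52 and 36.8 CPM) and Trib3 (118, 77.2 and 56.8 CPM), a share near the 11.7% of all genes. By contrast, 14 of the 19 were higher at 72 than at 6 h, with a median of 0.29, and the common test called 2 higher and 2 lower, below its shares of 19.6% and 22.3% over all genes.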
